A study of Mus musculus with 6 samples.

Results

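The proteasome genes of this mouse array were taken by name. They are the genes whose symbol starts with Psma to Psmg followed by a number, without Psmb8 and Psmb9, each read from its brightest probe set that names 1 gene. This gave 48 genes out of 19937 genes with such a probe set, among 34760 probe sets in all. The constitutive 20S core had 14 of them and the 19S cap 17. The other 17 were tissue-specific or interferon-inducible core variants, activators and an inhibitor, assembly chaperones and 2 further genes. These 2, Psmc3ip and Psme3ip1, match the name without being proteasome subunits. RNA came from CD4+ T cells of C57BL/6 mice aged 6 weeks, either wild type (WT, 3 arrays) or lacking cystathionine beta-synthase (CBS-KO, 3 arrays), the enzyme that joins homocysteine and serine and also makes hydrogen sulfide. The labels name no treatment, and neither the kind of Cbs allele, the promoter of any Cre, nor the cell isolation is described in the sources used here. The arrays are called biological replicates by their titles. Levels are log2(intensity + 16), and every difference is CBS-KO minus WT. Values of single arrays are given in the order of replicates 1, 2 and 3.

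The proteasome degrades proteins that carry ubiquitin chains. Its 20S core is a barrel of alpha rings, which gate the entrance, around beta rings, whose subunits Psmb5, Psmb6 and Psmb7 cut the peptide chain. The 19S cap binds ubiquitin chains, removes them and threads the substrate into the core with a ring of ATPases (Psmc genes) held by non-ATPase subunits (Psmd genes). Under interferon, Psmb8, Psmb9 and Psmb10 replace the constitutive cutting subunits and the activator of Psme1 and Psme2 docks on the core, which changes the peptides offered on MHC class I. The transcription factor Nfe2l1 raises core and cap genes together when proteasome activity is low, through antioxidant response elements in their promoters.

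Promoter windows of RefSeq (GRCm38.p6) were available for 40 of the 48 genes, in 44 windows, and the 250 bases upstream of each annotated start were searched on both strands. A window counts once for a motif however many matches it holds, and the motifs were chosen with earlier results known. The ETS site CCGGAAG stood in 8 of 14 cap genes and 1 of 11 core genes, in 31.8% of the members' windows against 6.91% of all 32851 windows. The antioxidant response element core TGACNNNGC was found in 11.4% of the members' windows (Psmb5, Psmb6, Psmc6, Psmd12 and Psmd9) against 10.16% of all. In Psmb6 the match lies past position 70525324 of chromosome 11, where RefSeq begins the gene on the plus strand, and that window is not shown. The CCAAT box CCAAT stood in 34.1% against 33.85% and the GC box GGGCGG in 52.3% against 32.74%. The interferon-stimulated response element, searched as GAAA repeated after 2 bases, stood in 6.8% against 2.98%, the STAT site TTCNNNGAA in 2.3% against 7.02% and an NF-kB site in 2.3% against 1.21%. These are matches of letters, not sites. The 4 windows below show the 120 bases upstream of the start, with the most upstream start taken where there are several. Capitals mark TGACNNNGC in the catalytic Psmb5 (chr14:54617996-54618115, minus strand), and CTTCCGG, the ETS letters on the other strand, in the cap genes Psmd11 (chr11:80428495-80428614, plus strand) and Psmd12 (chr11:107479408-107479527, plus strand). Psme2 (chr14:55591102-55591221, minus strand) is shown as the 1 member called in the comparison of the groups, and its 120 bases held none of these motifs except 1 GC box, which is not capitalised.
Psmb5: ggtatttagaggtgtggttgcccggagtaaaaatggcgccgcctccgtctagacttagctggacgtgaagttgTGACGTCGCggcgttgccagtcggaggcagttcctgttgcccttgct
Psmd11: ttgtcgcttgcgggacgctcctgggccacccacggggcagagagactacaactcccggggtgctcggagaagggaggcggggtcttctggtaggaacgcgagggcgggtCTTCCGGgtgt
Psmd12: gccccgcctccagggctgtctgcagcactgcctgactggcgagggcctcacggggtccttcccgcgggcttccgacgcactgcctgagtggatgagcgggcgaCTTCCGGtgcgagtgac
Psme2: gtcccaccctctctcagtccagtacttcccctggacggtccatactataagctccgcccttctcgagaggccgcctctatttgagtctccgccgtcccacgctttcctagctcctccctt

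The 6 arrays had median levels of 7.37 to 7.55, and Pearson's r across probe sets, which are not independent, was 0.970 to 0.988 between CBS-KO arrays against 0.989 to 0.994 between WT arrays. The Cbs probe set did not separate the groups (log2 difference 0.06, limma adjusted p = 0.801). The labels do not say which part of Cbs it covers, and it checks no label. Y-linked signal was present in CBS-KO 1 and 2 alone: Eif2s3y had levels of 9.41 and 9.19 there and of at most 4.90 elsewhere, so sex and genotype were partly confounded. Of 11 measured CD4 T cell markers, 4 were called lower (0 to 11 when single arrays were left out, the most without CBS-KO 2 and 0 without any WT array or CBS-KO 1), and their summed intensity ranged from 68394 to 74417 in WT and from 36753 to 58539 in CBS-KO arrays. Markers of other cells stood higher in the CBS-KO arrays: the summed intensity was 1477 to 3304 in WT and 26710 to 38904 in CBS-KO for 12 neutrophil genes, 2396 to 4453 and 16272 to 21645 for 11 monocyte genes, and 2255 to 4437 and 19119 to 45974 for 10 erythroid genes. Of these, 11, 11 and 10 passed as higher, with 5 to 12, 0 to 11 and 2 to 10 when single arrays were left out, the fewest without WT 1, WT 2 or CBS-KO 1. With all arrays, 5.09% of all tested probe sets were called higher and 4.47% lower. Without CBS-KO 2 the shares were 16.3% and 14.5%, and without CBS-KO 3 they were 3.92% and 2.69%. Without any WT array or CBS-KO 1, 0.259% to 2.04% of all tested probe sets were called higher and 0.0911% to 1.18% lower. Among B, plasma, NK and CD8 T cell markers 1 of 7, 1 of 5, 2 of 6 and 0 of 2 were called higher. None of these markers was at 0. Fewer cells of a type and less RNA per cell cannot be told apart in such bulk samples, and the part of these cells in the results below was not tested.

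Between the groups, 1 proteasome gene passed the test. Of the 46 members above the filter on low levels, none was called higher in CBS-KO cells, where 5.09% of all 20856 tested probe sets were, and 1, the activator subunit Psme2, was called lower, where 4.47% were (limma with Benjamini-Hochberg adjustment over all tested probe sets, threshold 0.05). In either direction this is 2.17% of the tested members, where 9.57% of all tested probe sets were called. At an unadjusted p below 0.05 there were 8 members higher, against 13.6% of all, and 1 lower, against 17.3%. Yet 40 of 46 members had a positive difference, against 42.8% of all tested probe sets, with a median of 0.25 against -0.05 (and -0.01 among the 10344 genes within the members' range of levels). Every 19S cap gene and 12 of 14 core genes had a positive value. These values rested in part on CBS-KO 3: without it 31 of 46 members were positive, with a median of 0.07. The cap genes Psmc4, Psmc5, Psmd2 and Psmd6 and the core gene Psmb1 then turned negative. The core genes Psma2 (-0.29) and Psma6 (-0.26), already negative with all arrays, lay further below WT. Without CBS-KO 2 the median was 0.41. The groups did not overlap for 8 members that lay higher, against 15% of all tested probe sets, and 3 that lay lower (Psme1, Psme2 and Psmb10), against 21.7%.

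**Figure D1:**
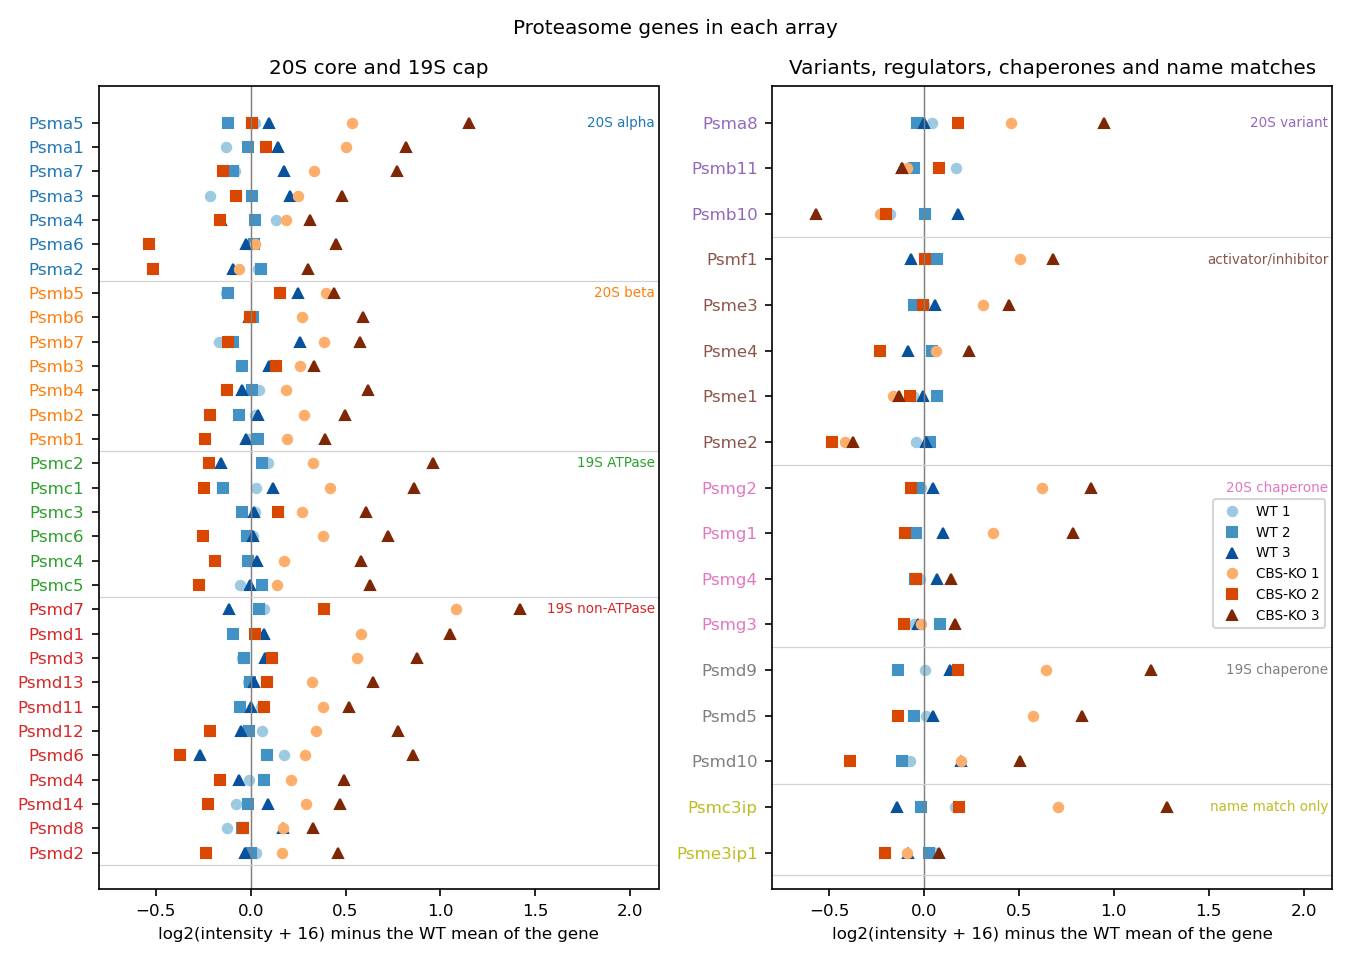
Level of each of the 48 genes in each array, as log2(intensity + 16) minus the gene's WT mean (horizontal axis), with genes on the vertical axis grouped and coloured by class. In the core and cap genes (left) CBS-KO 3 lies furthest right, CBS-KO 1 next and CBS-KO 2 left of both, among or below the WT arrays in most rows.

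The CBS-KO arrays disagreed among themselves in a way shared by nearly all members. In 43 of 46 members the level was lowest in CBS-KO 2, intermediate in CBS-KO 1 and highest in CBS-KO 3, an order found in 33.3% of all tested probe sets and in 44.8% of genes within the members' range of levels. All 14 core and all 17 cap genes had it. Relative to the WT mean, the 20S core stood at 0.27, -0.13 and 0.55 in CBS-KO 1 to 3 and the 19S cap at 0.36, -0.09 and 0.72. Above the highest WT array lay 38 members in CBS-KO 1, 8 in CBS-KO 2 and 43 in CBS-KO 3, against 31%, 31.1% and 35.4% of all tested probe sets. Below the lowest WT array lay 4, 27 and 3 members, against 43.1%, 39.5% and 45.2%. The median SD of a member was 0.07 among WT and 0.36 among CBS-KO arrays, where all tested probe sets had 0.11 and 0.21.

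The same order was present outside the proteasome. The proliferation list (16 measured genes such as Mki67, Ccna2 and Rrm2) had means of 1.65, 0.56 and 1.99 above WT in CBS-KO 1 to 3, and all 16 genes kept the order CBS-KO 2, 1, 3. The erythroid list had means of 3.51, 2.50 and 3.83, while neutrophil genes (3.74, 3.27 and 3.42) and monocyte genes (1.91, 2.53 and 2.05) followed other orders. CD4 T cell markers had means of -0.64, -0.33 and -1.03, the reverse order, highest in CBS-KO 2 and lowest in CBS-KO 3. That reverse order was also found for B cell (-0.18, 1.07 and -0.71), plasma cell (0.73, 1.21 and 0.34) and CD8 T cell markers (-0.37, 0.97 and -0.44). NK cell markers had means of 0.94, 0.77 and 0.13. CBS-KO 1 and CBS-KO 2 both carried Y-linked signal and lay on opposite sides of the WT mean in core and cap. No WT array carried that signal, and the part of sex in the order of the CBS-KO arrays was not tested. The part of proliferating, erythroid, CD4 T, B, plasma or CD8 T cells in the members' levels was not tested.

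**Figure D2:**
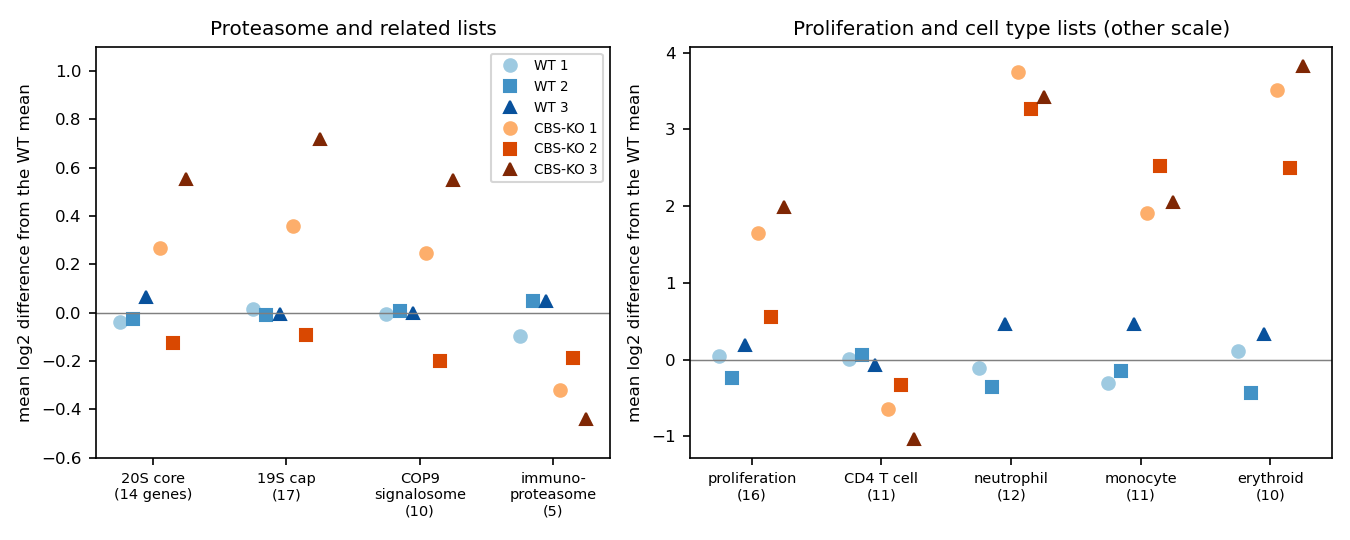
Mean log2 difference from the WT mean (vertical axis, a wider scale on the right) for the listed gene sets, 1 point per array, with the number of genes in brackets. Core, cap, COP9 signalosome, proliferation and erythroid means run from CBS-KO 2 over CBS-KO 1 to CBS-KO 3, and the immunoproteasome means lie below the WT points in all CBS-KO arrays.

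The count of members called thus depended on CBS-KO 2. Without that array, 22 of 46 members were called higher (47.8%, against 16.3% of all tested probe sets) and Psme2 lower (14.5% of all). They comprised 5 of 14 core genes, 10 of 17 cap genes and 7 of the 15 other members. The largest of these differences were in Psmd7 (1.25, SE 0.13, limma adjusted p = 0.00308), Psmc3ip (0.99, SE 0.20, 0.0168) and Psmd9 (0.92, SE 0.20, 0.0201). Leaving out any other single array gave no member called higher, in fits where 0.259% to 3.92% of all tested probe sets were. In arrays without Y-linked signal, where CBS-KO 3 stands alone against WT and is assumed to vary like the WT arrays, 31 members were called higher (16.7% of all), and with Y-linked signal as a model term, when the estimate also rests on CBS-KO 3, 14 were (11.1% of all). In both fits 1 member was called lower, against 15.5% and 12.8% of all tested probe sets.

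**Figure D3:**
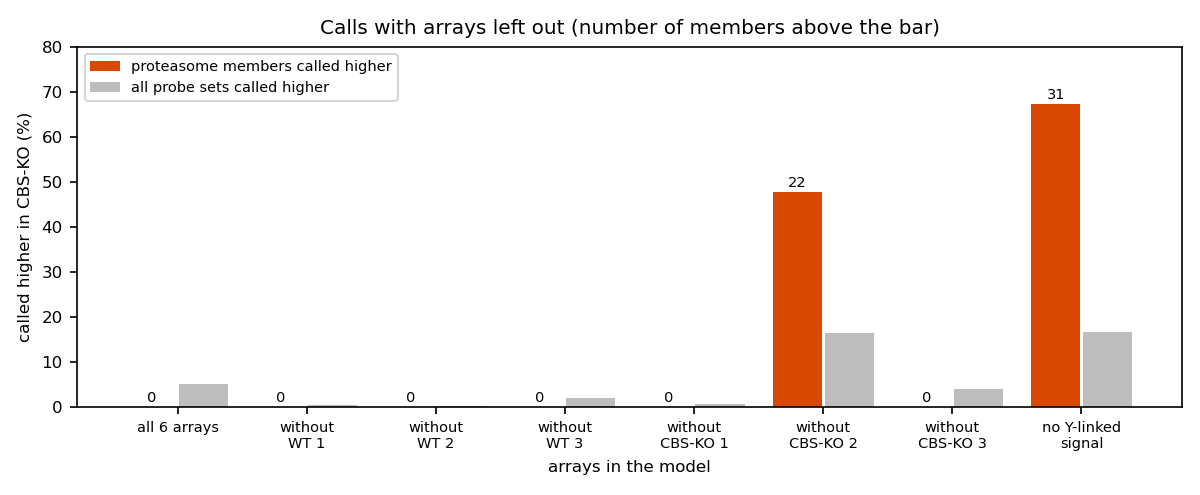
Share of the tested proteasome genes (orange, with their number) and of all tested probe sets (grey) called higher in CBS-KO cells (vertical axis, percent) when arrays are left out (horizontal axis). The members reach 22 calls without CBS-KO 2 and 31 in the arrays without Y-linked signal, and 0 in the other fits shown.

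In the alpha ring of the 20S core, 5 of 7 differences were positive and 2 negative, with a median of 0.22, and none passed. Psma5, at the top of the ring, had levels of 9.54, 9.39 and 9.61 in the WT arrays and 10.05, 9.52 and 10.66 in the CBS-KO arrays. CBS-KO 1 and 3 lay above all WT arrays and CBS-KO 2 among them, so the groups overlapped, and the difference was 0.56 (SE 0.28, 95% confidence interval -0.10 to 1.22, limma adjusted p = 0.221). Psma2, at the bottom, had 10.49, 10.50 and 10.36 in the WT arrays and 10.39, 9.93 and 10.75 in the CBS-KO arrays. Here CBS-KO 2 lay below and CBS-KO 3 above all WT arrays, with a difference of -0.09 (SE 0.21, 95% confidence interval -0.58 to 0.40, limma adjusted p = 0.809). Between them, Psma6 was at -0.02, and Psma4, Psma3, Psma7 and Psma1 ranged from 0.11 to 0.47. The other probe sets of Psma3 (0.29 and 0.26, against 0.22 for the one used) and of Psma5 (0.44 against 0.56) had values of the same sign. The files do not give the positions of these probe sets, so signal from near-identical copies cannot be separated.

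The beta ring had 7 positive differences in a narrow range, from 0.11 to 0.33, and none passed. Psmb5, which cuts after hydrophobic residues, had levels of 12.42, 12.43 and 12.80 in the WT arrays and 12.94, 12.70 and 12.99 in the CBS-KO arrays. WT 3 lay between CBS-KO 2 and CBS-KO 1, so the groups overlapped, and the difference was 0.33 (SE 0.13, 95% confidence interval 0.02 to 0.64, limma adjusted p = 0.145). Psmb6, which cuts after acidic residues, had 10.49, 10.51 and 10.49 in the WT arrays and 10.76, 10.49 and 11.09 in the CBS-KO arrays, with CBS-KO 2 inside the WT range and a difference of 0.29 (SE 0.16, 95% confidence interval -0.09 to 0.67, limma adjusted p = 0.276). Psmb7, which cuts after basic residues, had 10.41, 10.48 and 10.84 in the WT arrays and 10.96, 10.46 and 11.15 in the CBS-KO arrays. CBS-KO 2 lay within the WT range there too, and the difference was 0.28 (SE 0.21, 95% confidence interval -0.22 to 0.78, limma adjusted p = 0.407). Psmb1, the lowest of the ring, had 10.35, 10.40 and 10.34 in the WT arrays and 10.55, 10.12 and 10.75 in the CBS-KO arrays, with a difference of 0.11 (SE 0.17, 95% confidence interval -0.29 to 0.52, limma adjusted p = 0.698). The groups did not overlap for Psmb3 alone in this ring, where levels were 13.00, 13.01 and 13.15 in the WT arrays and 13.32, 13.19 and 13.39 in the CBS-KO arrays. Its difference of 0.24 (SE 0.08, 95% confidence interval 0.05 to 0.43, limma adjusted p = 0.0955) did not pass either. The other probe set of Psmb3 differed by 0.19 (limma adjusted p = 0.19).

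The ATPases of the 19S cap differed by 0.17 to 0.36, and none of the 6 passed. Psmc2, the highest, had levels of 9.76, 9.72 and 9.51 in the WT arrays and 9.99, 9.44 and 10.62 in the CBS-KO arrays. CBS-KO 2 lay below and CBS-KO 1 and 3 above all WT arrays, and the difference was 0.36 (SE 0.29, 95% confidence interval -0.33 to 1.04, limma adjusted p = 0.447). Psmc5 had 9.29, 9.41 and 9.34 in the WT arrays and 9.49, 9.08 and 9.97 in the CBS-KO arrays, the same pattern at a smaller difference of 0.17 (SE 0.23, 95% confidence interval -0.38 to 0.71, limma adjusted p = 0.671). Psmc3 was the ATPase whose groups did not overlap, at 0.34 (limma adjusted p = 0.165). The other probe set of Psmc1 differed by 0.25, against 0.34 for the one used.

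Among the 11 non-ATPase subunits Psmd7 stood apart in size. Psmd7, a scaffold partner of the deubiquitinase Psmd14 in the lid of the cap, had levels of 10.27, 10.24 and 10.09 in the WT arrays and 11.28, 10.59 and 11.62 in the CBS-KO arrays. Every CBS-KO array lay above every WT array, a ratio of 1.95 between the group means, and the difference was 0.96 (SE 0.25, 95% confidence interval 0.36 to 1.57, limma adjusted p = 0.0592). It thus just missed the threshold, and it passed in 6 of the 20 alternatives run, including quantile normalization (adjusted p = 0.046), 1 probe set per gene (0.0449) and without CBS-KO 2 (0.00308). Psmd2, a base subunit that docks ubiquitin-like domains, had the smallest difference, with levels of 12.03, 12.01 and 11.97 in the WT arrays and 12.17, 11.77 and 12.46 in the CBS-KO arrays. CBS-KO 2 lay below and CBS-KO 1 and 3 above WT, and the difference was 0.13 (SE 0.17, 95% confidence interval -0.27 to 0.53, limma adjusted p = 0.655). The other probe set of Psmd2 differed by 0.16, where Psmd8 was at 0.15, so this lowest rank depended on the probe set. The deubiquitinase Psmd14 itself differed by 0.18 (limma adjusted p = 0.547) and the ubiquitin receptor Psmd4 by 0.18 (limma adjusted p = 0.539). Psmd1 and Psmd3 came next to Psmd7, at 0.55 (limma adjusted p = 0.18) and 0.52 (limma adjusted p = 0.133), and the groups did not overlap for Psmd3, Psmd11 and Psmd13.

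Set side by side, the core lay a little below the cap. The median difference was 0.23 for the 14 core genes and 0.30 for the 17 cap genes, a gap of -0.07 (core minus cap) with no test. All tested probe sets had a median difference of -0.05. Without CBS-KO 3 the medians were 0.09 and 0.07, and without CBS-KO 2 they were 0.40 and 0.48. Within single arrays the core mean minus the cap mean was -0.05, -0.02 and 0.07 for WT and -0.09, -0.03 and -0.17 for CBS-KO, so the groups overlapped. The gap was 0.008 without WT 3 and 0.02 without CBS-KO 3, the 2 alternatives in which the core median was the higher one, and it was -0.14 without WT 1. Other filters, other variance models, the replicate block, a common array median and 1 probe set per gene could not change the gap.

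**Figure D4:**
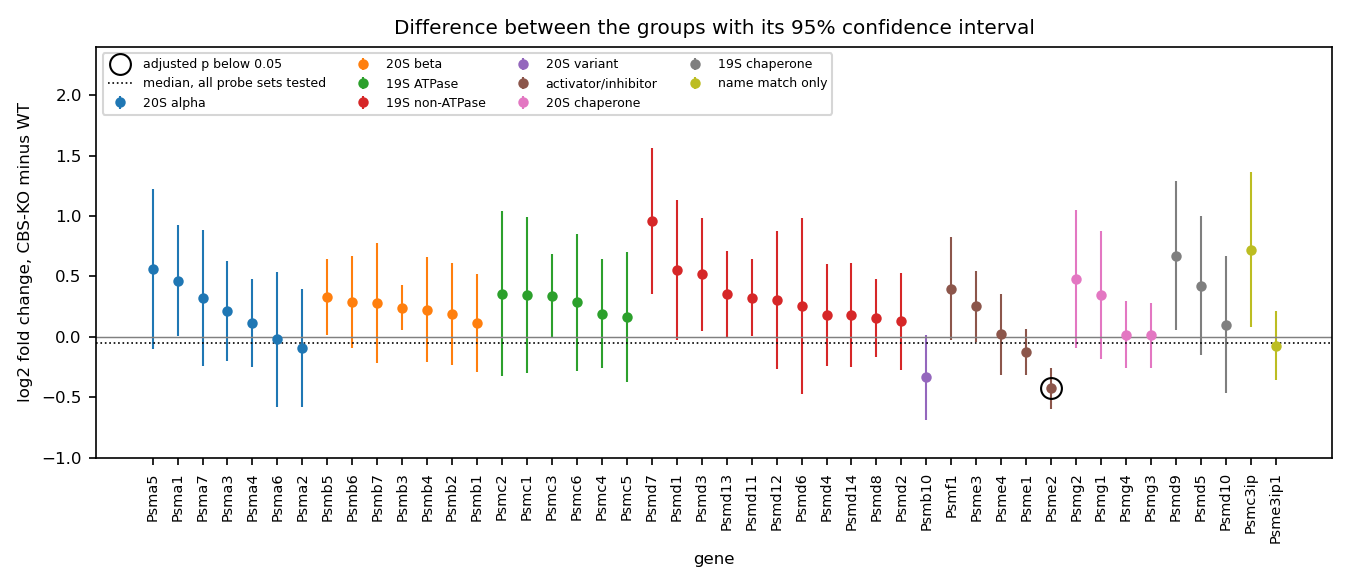
Log2 fold change of the 46 tested genes (vertical axis, CBS-KO minus WT) with 95% confidence intervals from the limma fit, grouped and coloured by class along the horizontal axis; the dotted line is the median of all tested probe sets, -0.05. Most points lie above 0 with intervals that reach it, Psmd7 is the highest at 0.96, and Psme2 (circled) is the 1 gene with an adjusted p below 0.05.

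Genes of the interferon-inducible form of the proteasome had negative differences, unlike most members, and 1 of them passed the test. Psme2, which forms the activator ring with Psme1, had levels of 12.32, 12.40 and 12.38 in the WT arrays and 11.95, 11.88 and 11.99 in the CBS-KO arrays. The CBS-KO arrays were close to each other and each was lower than any WT array, at a ratio of 0.745 between the group means, and the difference was -0.43 (SE 0.07, 95% confidence interval -0.60 to -0.25, limma adjusted p = 0.0228). The difference stayed between -0.47 and -0.38 over all alternatives, and Psme2 passed in 15 of 20. Among these, leaving out Psmc3ip and Psme3ip1 reused the same fit and could not change the call. The call was lost without WT 1 (adjusted p = 0.108), WT 2 (0.117), WT 3 (0.0671) or CBS-KO 1 (0.103) and with a common array median (0.058). Without those arrays, in the same order, 0.12%, 0.0911%, 1.18% and 0.225% of all tested probe sets were called lower, against 4.47% with all arrays. A second probe set that names Psme2 together with Psme2b was left out because it names 2 genes, and the part of Psme2b, a near-identical copy, in the signal of the one used was not tested. Psme1 had 11.76, 11.89 and 11.81 in the WT arrays and 11.66, 11.75 and 11.69 in the CBS-KO arrays, also without overlap, but with a difference of -0.12 (SE 0.08, 95% confidence interval -0.31 to 0.06, limma adjusted p = 0.336).

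Psmb10, the inducible counterpart of Psmb7, had levels of 10.78, 10.96 and 11.14 in the WT arrays and 10.73, 10.76 and 10.39 in the CBS-KO arrays. The CBS-KO arrays lay below the WT arrays, CBS-KO 3 furthest, and the difference was -0.34 (SE 0.15, 95% confidence interval -0.69 to 0.02, limma adjusted p = 0.179). Beside it, Psmb8, the counterpart of Psmb5, differed by -0.32 (limma adjusted p = 0.178), and Psmb9, the counterpart of Psmb6, by -0.37 (limma adjusted p = 0.143). Of the 5 immunoproteasome genes, Psmb8, Psmb9, Psmb10, Psme1 and Psme2, all had negative values (median -0.34). Of them 1 was called lower, where 4.47% of all tested probe sets were. That count was 3 without CBS-KO 2, where 14.5% of all tested probe sets were called lower. It was 0 without WT 1, WT 2, WT 3 or CBS-KO 1, where 0.0911% to 1.18% were. Averaged over these genes, CBS-KO 1 to 3 stood at -0.32, -0.19 and -0.44 from the WT mean, lowest where core and cap were highest. CD4 T cell marker means were -0.64, -0.33 and -1.03. The genes did not share that order. Psmb8, Psmb9 and Psmb10 were lowest in CBS-KO 3 and Psme1 in CBS-KO 1. Psme2, the gene called, was lowest in CBS-KO 2 and highest in CBS-KO 3, as core and cap were. The part of the fraction of T cells was not tested. The other core variants had mean levels below the filter at 6.99 and were not tested: Psma8, the testis form of an alpha subunit, had levels of 5.93, 5.85 and 5.89 in the WT arrays and 6.34, 6.07 and 6.84 in the CBS-KO arrays, and Psmb11, the thymic epithelial beta subunit, had 7.14, 6.91 and 6.85 in the WT arrays and 6.87, 7.04 and 6.85 in the CBS-KO arrays.

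The other regulators of the core showed no call. Psmf1, an inhibitor of the core in the test tube, had levels of 10.87, 10.94 and 10.80 in the WT arrays and 11.37, 10.87 and 11.55 in the CBS-KO arrays. CBS-KO 1 and 3 lay above WT and CBS-KO 2 among the WT arrays, with a difference of 0.40 (SE 0.18, 95% confidence interval -0.03 to 0.82, limma adjusted p = 0.186). Psme3, the nuclear activator subunit, differed by 0.25 (limma adjusted p = 0.219) and the large activator Psme4 by 0.02 (limma adjusted p = 0.944).

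Assembly chaperones spread widely and none passed. Psmg2, which with Psmg1 guides alpha ring assembly, had levels of 9.77, 9.76 and 9.83 in the WT arrays and 10.41, 9.72 and 10.67 in the CBS-KO arrays. CBS-KO 2 lay just below and CBS-KO 1 and 3 above WT, and the difference was 0.48 (SE 0.24, 95% confidence interval -0.09 to 1.05, limma adjusted p = 0.226). Psmg3, of the second such pair with Psmg4, had 7.56, 7.71 and 7.59 in the WT arrays and 7.60, 7.51 and 7.78 in the CBS-KO arrays, a difference of 0.01 (SE 0.11, 95% confidence interval -0.26 to 0.28, limma adjusted p = 0.959). Psmg1 followed Psmg2 at 0.35 and Psmg4 stood with Psmg3 at 0.02, but the difference between the pairs was not tested. Of the chaperones of the cap's base, Psmd9 had 8.25, 8.11 and 8.38 in the WT arrays and 8.89, 8.42 and 9.44 in the CBS-KO arrays. All CBS-KO arrays lay above WT, CBS-KO 2 by little, and the difference was 0.67 (SE 0.26, 95% confidence interval 0.05 to 1.29, limma adjusted p = 0.136). Psmd10, also known as gankyrin, had 9.92, 9.88 and 10.19 in the WT arrays and 10.19, 9.60 and 10.50 in the CBS-KO arrays, a difference of 0.10 (SE 0.24, 95% confidence interval -0.46 to 0.67, limma adjusted p = 0.815), and Psmd5 was between them at 0.42.

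Among the 2 genes that match the name without being proteasome subunits, Psmc3ip, a partner of meiotic recombinases, had levels of 7.60, 7.42 and 7.30 in the WT arrays and 8.15, 7.63 and 8.72 in the CBS-KO arrays. CBS-KO lay above WT in every array, and the difference of 0.72 (SE 0.27, 95% confidence interval 0.08 to 1.37, limma adjusted p = 0.128) did not pass. Psme3ip1 had 10.21, 10.17 and 10.06 in the WT arrays and 10.06, 9.94 and 10.23 in the CBS-KO arrays and a difference of -0.07 (SE 0.12, 95% confidence interval -0.36 to 0.21, limma adjusted p = 0.729). Neither gene was called, so leaving both out of the same fit could not change the counts, 0 called higher and 1 lower of 44 tested members.

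The wider pathway, from lists that were also chosen with earlier results known, gave 2 calls among the regulators of proteasome genes. Of 6 measured genes in that list, Ngly1, the deglycosylase that processes Nfe2l1 into its active form, was lower and Mafg, a small Maf partner of Nfe2l1 and Nfe2l2, was higher. Ngly1 had levels of 10.53, 10.60 and 10.57 in the WT arrays and 9.94, 9.81 and 9.91 in the CBS-KO arrays. The groups lay far apart, with a difference of -0.68 (SE 0.10, 95% confidence interval -0.92 to -0.45, limma adjusted p = 0.016). Mafg had 8.87, 8.67 and 8.93 in the WT arrays and 9.48, 9.49 and 9.54 in the CBS-KO arrays, likewise without overlap, and rose by 0.68 (SE 0.12, 95% confidence interval 0.39 to 0.98, limma adjusted p = 0.0259). Both lost their calls without WT 1, WT 2, WT 3 or CBS-KO 1 (adjusted p up to 0.0992 for Ngly1 and 0.123 for Mafg). In those fits 0.259% to 2.04% of all tested probe sets were called higher and 0.0911% to 1.18% lower. With all arrays the shares were 5.09% and 4.47%. Nfe2l1 itself differed by -0.12 (limma adjusted p = 0.488) and Nfe2l2 by 0.02 (limma adjusted p = 0.961).

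No call was made among 10 other cap subunits and associated factors (6 positive, median 0.11). The core maturation factor Pomp differed by 0.41 (limma adjusted p = 0.114) and the cap-bound thioredoxin Txnl1 by 0.88 (limma adjusted p = 0.0985). In the p97 and shuttle factor list 8 of 10 were positive (median 0.21) and none passed, led by Ubqln4 at 0.55 (limma adjusted p = 0.0696) and Rad23b at 0.48 (limma adjusted p = 0.0701), shuttles that carry ubiquitinated proteins to the cap. The ubiquitin genes and E1 enzymes had 1 measured gene, Uba6, at -0.16 (limma adjusted p = 0.554). The COP9 signalosome, a complex built like the lid of the cap that removes Nedd8 from cullins, had 8 of 10 positive values (median 0.24) and no call, with Cops7a at 0.27 (limma adjusted p = 0.141) and Gps1 at 0.36 (limma adjusted p = 0.245). Without CBS-KO 2, 4, 4 and 5 genes of the associated factor, shuttle and signalosome lists were called higher. Of 8 heat shock genes (median 0.46), 1 was called, the co-chaperone Bag3, which rose by 0.69 (limma adjusted p = 0.0305). It lost its call without any 1 array other than CBS-KO 2 (adjusted p up to 0.138) and with the replicate block (0.0504). In those fits with an array left out, 0.259% to 3.92% of all tested probe sets were called higher. Without CBS-KO 2 the list had 5 calls. In the fit with all arrays, which gave the call of Bag3, 5.09% of all tested probe sets were called higher. In that fit 7 of 16 proliferation genes were higher (median 1.40), Mki67, Ccna2, Aurkb, Mcm2, Mcm5, Rrm2 and Tyms. The count became 16, all of them, when CBS-KO 2 was left out, 3 when CBS-KO 3 was and 0 for any other single array. The shares of all tested probe sets called higher in these fits were 16.3%, 3.92% and 0.259% to 2.04%.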

How the data were processed

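For every probe set the authors deposited an intensity on a linear scale. How it was background-corrected, normalized and summarised is not stated in the labels. Per the protocols there, biotinylated cRNA was made from 6 ug of total RNA by the standard Affymetrix protocol. Scale and range were read from the values, and centring remains unknown. Values were taken as log2(intensity + 16). Probe sets with a mean over the 6 arrays above the 40th percentile (20856 of 34760) were compared with limma 3.58.1 (R 4.3.3, moderated variance with an intensity trend, two-sided test), with Benjamini-Hochberg adjustment over all of them. Gene names come from the platform's annotation (21640 probe sets name 1 gene, 1321 several, 11799 none). The members, lists and motifs were chosen with earlier results of these data known, so no test was made over the list. Values by array are given for members called, for the highest and lowest of each class and for the cutting subunits, and Psmb3, Psme1, Psma8 and Psmb11, like the single differences of other members, were added after their values were seen. Alternatives were 2 normalizations, other filters, offsets of 1 and 64, other variance models, the replicate number as a block, other probe set choices, sex and each array left out. Plots used matplotlib 3.10.9 (Python 3.11.15). With 3 arrays per group, their number limits precision, and p-values measure the spread between these arrays.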

Additional observations from a re-analysis of the deposited data

How the results depend on the processing

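Over 20 alternatives, the number of members called higher, 0 in the model as reported, was 1 (Psmd7) after quantile normalization, with probe sets averaged by gene and with 1 probe set per gene, 14 with Y-linked signal as a term and 31 in the arrays without it, and 0 to 22 when single arrays were left out. The number called lower, 1, was 0 with a common array median and 0 to 1 when single arrays were left out. In the fits with single arrays left out, 0.259% to 16.3% of all tested probe sets were called higher and 0.0911% to 14.5% lower. The gap between the core and cap medians, -0.07, was -0.15 in both fits for sex and -0.14 to 0.023 when single arrays were left out. Signs turned for Psma2 (0.30 in both fits for sex, -0.29 to 0.12 over single arrays left out) and Psme3ip1 (0.079 in both fits for sex). When single arrays were left out, they also turned for Psmb1 (-0.023 to 0.29), Psmc5 (-0.066 to 0.38), Psmd10 (-0.10 to 0.35), Psmd2 (-0.036 to 0.31) and Psmg3 (-0.062 to 0.073). Of the members given less fully, Psma6 was at 0.24 without CBS-KO 2 and at 0.45 in the arrays without Y-linked signal, and Psmc4 (-0.0039), Psmd6 (-0.042), Psme4 (-0.087) and Psmg4 (-0.044) were negative without CBS-KO 3. The cause was not tested. The replicate numbers share no stated origin. With the replicate block, 0 members were called higher and 1 lower, the gap was -0.07, and 1169 and 924 of all probe sets passed against 1062 and 933 without it. Deviations of same-numbered arrays correlated at 0.06, 0.16 and 0.11, and every array correlated best with its own number. WT 3 with CBS-KO 1 came close, at 0.05. Deviations were taken from each group's own mean, so these correlations depend on each other. A shared origin of same-numbered arrays was not tested. Signal over background is not known for this table, which limits the low genes Psma8 and Psmb11 most.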
